A study of Ovis aries with 9 samples.

Results

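The change in gene expression between gestation days 85 and 105 was measured in the longissimus dorsi, the long muscle of the back, of Chinese merino sheep fetuses. The comparison used 3 libraries of day 85 (D85) and 3 of day 105 (D105), which are 6 of the 9 libraries of the series, and the other 3 were from day 135 (D135) and added to the estimate of the spread. All libraries share breed and muscle, no treatment is named, and the labels do not say whether a day's 3 libraries are from separate fetuses. The p-values therefore measure the spread between libraries, which may be technical. Values were FPKM, the number of sequenced fragments scaled by transcript length and library total. A locus was tested if it reached 1 FPKM in at least 3 of the 9 libraries, which kept 13086 of 22605 loci. Changes are differences of log2(FPKM + 1), D105 minus D85, a scale that understates the change of low loci. A locus was called, and is said to have risen or fallen, at an adjusted p under 0.05 from limma.

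Most fibres of a large mammal's muscle are laid down before birth, primary fibres first and secondary fibres around them. Later gestation is a time of fibre growth, of exchange of embryonic and neonatal protein isoforms for adult ones, and of ingrowth of vessels and nerves. A whole muscle also holds endothelium, pericytes, fibroblasts, tendon and nerve, so its RNA is a mixture. In such bulk samples, fewer cells of a type and less RNA per cell cannot be told apart.

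The tissue label was checked against muscle genes, of which CKM, muscle creatine kinase, was at 552, 504 and 843 FPKM at D85 and 946, 1062 and 1092 at D105. Depth in reads is not given, but the step between the lowest values put the depth of the D85 and D105 libraries at 0.993 to 1.07 times that of D85 replicate 1. From 2767 to 3068 loci were listed at 0 in each of these libraries. In D105 replicate 2, 91 loci lay over 2 log2 units above both other D105 libraries, against 46 to 73 loci so placed in each other D85 or D105 library within its day. Summed markers of tendon, cartilage and fat were among what was high in it. Summed over 15 tendon markers, the level was 192 to 329.9 FPKM at D85, and 199.8, 696 and 179.8 FPKM in D105 replicates 1, 2 and 3. The 18 cartilage and bone markers summed to 27.2 to 76 FPKM at D85 and to 20.1, 250.2 and 24.8 FPKM at D105, of which COL9A2, MATN1 and HAPLN1 of cartilage and SP7, IBSP and DMP1 of bone-forming cells were below 0.5 FPKM in each of the 6 libraries. For 14 adipocyte markers the sums were 12.8 to 28.1 FPKM and 19.4, 137 and 23.5 FPKM. Of the 10 loci lying farthest above the other D105 libraries in that library, TNMD, tenomodulin, was at 2.06, 85.2 and 3.05 FPKM and CPZ, a carboxypeptidase, at 2.56, 56.3 and 2.78 FPKM. FABP4, the fatty acid carrier of fat cells, was at 0.785, 45.6 and 0.897 FPKM, and the joined locus of COL11A2, a cartilage collagen chain, was at 1.15, 64.3 and 2.26 FPKM. HSPB2, a small heat shock protein of muscle and the farthest of the 10, was at 0.000886, 43.6 and 0.000701 FPKM. At D85 it was at 0.000237, 0.000715 and 6.48 FPKM and at D135 at 42.8, 34.1 and 32.7 FPKM. PCBP1, an RNA-binding protein, and NDN, necdin, were also among the 10, which were thus not all of tendon, cartilage or fat. PCBP1 was at 0, 23.5 and 0 FPKM at D85 and 0, 20.2 and 0 FPKM at D105. NDN was at 1.4, 0 and 16.2 FPKM at D85 and 0, 15.7 and 0 FPKM at D105. A listed 0 can be a failed estimate, and whether these loci reflect the content of D105 replicate 2 was not tested. Without that library the changes of HSPB2, FABP4, CPXM2, CPZ and FMOD turned from positive to negative, that of HSPB2 from 0.86 to -0.97. The 10 were chosen for being highest in D105 replicate 2, so lower changes without it follow from the choice. None of these 10 loci was called. The part of these tissues in the results was not tested. Calls are therefore also given without D105 replicate 2, as are list medians and the list counts at an unadjusted p where they differ.

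**Figure D1:**
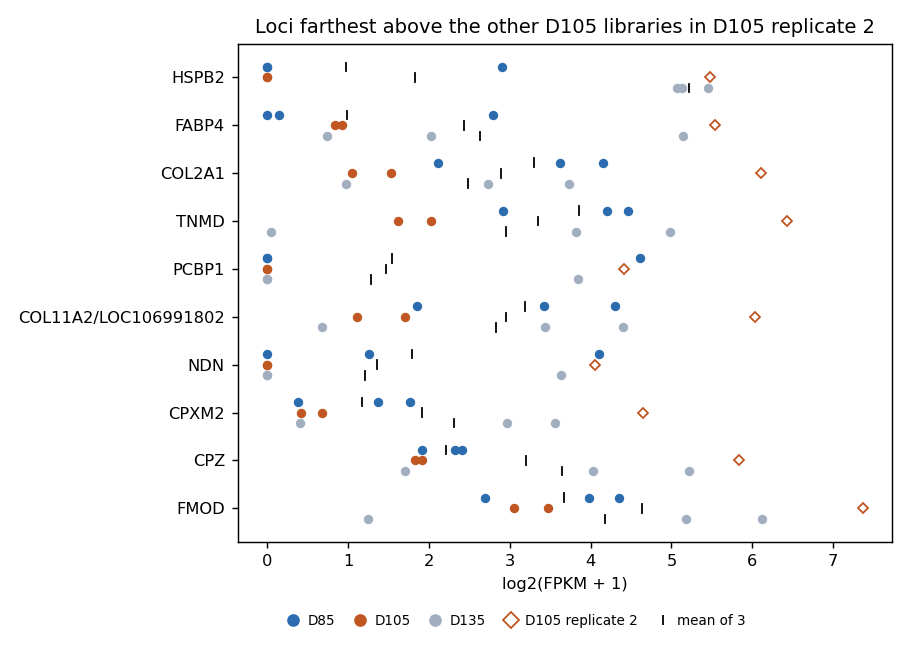
The 10 loci with a symbol that lay farthest above the other D105 libraries in D105 replicate 2, with log2(FPKM + 1) on the horizontal axis. Points are single libraries, the open diamond is D105 replicate 2, and black ticks are means of 3 libraries; TNMD stood at 2.06, 85.2 and 3.05 FPKM in D105 replicates 1, 2 and 3.

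Between D85 and D105, 26 loci were called (0.199% of those tested), 19 that rose (0.145%) and 7 that fell (0.0535%). At an unadjusted p under 0.05 there were 1611 loci (1415 without D105 replicate 2), 5.65% of all tested higher and 6.66% lower. The largest rises were those of EEF1A2 and ACTN3, genes of mature muscle, and other loci that rose included the pericyte gene RGS5 and the endothelial gene EGFL7, while those that fell included an adhesion gene, CNTN3, and a channel gene, KCNN1. The D85 and D105 values did not overlap at any of the 26 loci, which were called on those same values. Over all tested loci, D105 lay wholly above D85 at 8.0% and wholly below at 10.4%. The median change of all tested loci was -0.02. Without D105 replicate 2 the count was 22 (0.168%), of which 10 rose (0.0764%) and 12 fell (0.0917%). The 2 sets of calls shared 11 loci, 8 that rose and 3 that fell, so 15 calls were lost and 11 gained. Of the 26 called loci, 7 were called in each of the 9 fits that left out a single library, and 6 in none of them. The former were EEF1A2, ACTN3, RGS5, UHMK1, MSTRG.2474, MSTRG.2252 and the RNF220 locus, and the latter PRSS23, KCNN1, RHBDF2, F8, LOC101103458 and PLCD1. At MSTRG.2474, MSTRG.2252 and the RNF220 locus, all libraries of D85 or of D105 were listed at 0. Such a day shows no spread, and these 3 loci hold no reference transcript. The count was 28 without D105 replicate 1, with 10 higher and 18 lower, 14 without D135 replicate 2, and 16 without D85 replicate 2 or D85 replicate 3. Adjusted p values of the 26 loci lay between 0.000167 (MSTRG.2474) and 0.0497 (CA2).

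**Figure D2:**
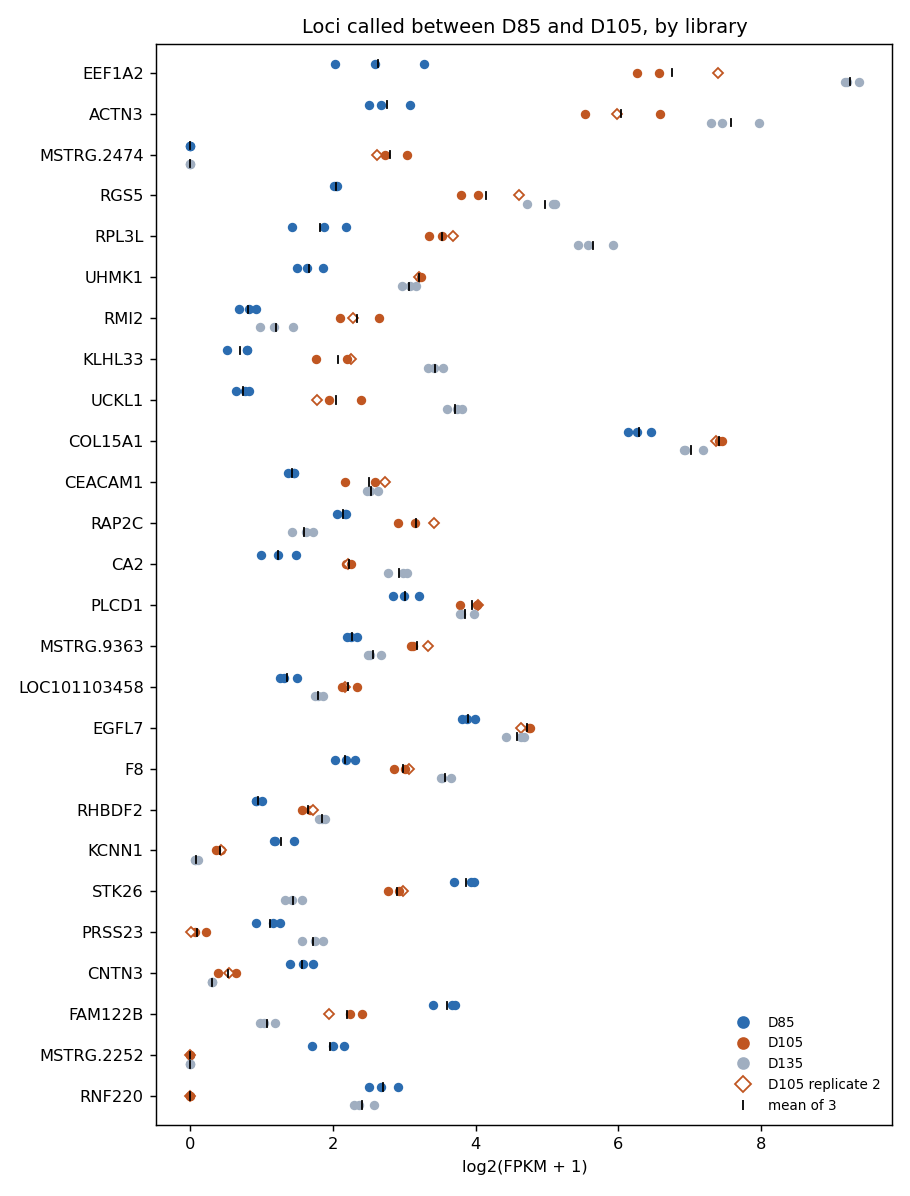
The 26 called loci, ordered by change, with log2(FPKM + 1) on the horizontal axis. Points are single libraries of D85, D105 and D135, the open diamond is D105 replicate 2, and black ticks are means of 3; at each locus the D85 and D105 points do not overlap.

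Among muscle genes, EEF1A2 and ACTN3 had the largest rises of the called loci. EEF1A2 encodes the form of elongation factor 1-alpha found in mature muscle and neurons. It was at 5.04, 8.69 and 3.09 FPKM in the D85 libraries and 76, 167 and 93.9 FPKM in those of D105, a 20.1-fold difference of the means (adjusted p = 0.00768), and at 660.2, 587 and 577 FPKM at D135. Its ubiquitous paralog EEF1A1 was at 1066, 753 and 899 FPKM and 771, 716 and 775 FPKM, which overlapped. ACTN3, the alpha-actinin of fast fibres, was at 4.71, 5.36 and 7.44 FPKM and then 45.4, 62.1 and 95.3 FPKM, with D105 replicate 2 between the other D105 libraries. Both calls held without D105 replicate 2 (adjusted p = 0.00835 and 0.0248). RPL3L, a ribosomal protein of striated muscle, was at 3.54, 2.67 and 1.69 FPKM and 10.6, 11.9 and 9.2 FPKM. Its call was lost without D105 replicate 2 (adjusted p = 0.0836) although the change was 1.61 against 1.70. For KLHL33, a kelch-like protein, the libraries were at 0.741, 0.739 and 0.437 FPKM and 2.39, 3.78 and 3.61 FPKM, with an adjusted p of 0.0547 without D105 replicate 2.

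CA2, a cytosolic carbonic anhydrase, rose from 1.35, 1.8 and 1.0 FPKM to 3.57, 3.62 and 3.8 FPKM. The change was 0.98 ± 0.14 SE (adjusted p = 0.0497), and it was at 7.22, 6.95 and 5.82 FPKM at D135. PLCD1, a phospholipase C that cleaves membrane phosphoinositides, rose from 6.99, 8.2 and 6.17 FPKM to 12.7, 15.4 and 15.2 FPKM. Its change was 0.93 ± 0.12 SE (adjusted p = 0.0448). The call of CA2 was lost in 8 of the 9 fits that left out a library, up to an adjusted p of 0.158 on leaving out D85 replicate 1, and that of PLCD1 in 9, up to an adjusted p of 0.142 on leaving out D85 replicate 1. A locus under the name of UCKL1, a uridine-cytidine kinase relative, also rose, but it holds no reference transcript. It was at 0.561, 0.77 and 0.709 FPKM and 2.87, 2.43 and 4.25 FPKM, and at 12.3, 13 and 11.2 FPKM at D135 (change 1.29 ± 0.16 SE, adjusted p = 0.0317, lost in 7 of the 9 fits, up to an adjusted p of 0.111 on leaving out D85 replicate 1). The locus that holds the reference UCKL1 transcripts was at 2.86, 3.78 and 2.53 FPKM and 3.38, 3.67 and 4.2 FPKM, which overlapped.

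Several called loci are of genes known from vessel walls or basement membranes, but which cells held their RNA was not tested. Of the 13 smooth muscle and pericyte markers tested, RGS5 among them, 7 had positive changes and 6 negative. They include DES and NOTCH3, which are also in lists of muscle genes below. RGS5, a regulator of G protein signalling that marks pericytes, was at 3.03, 3.18 and 3.13 FPKM at D85 and 12.9, 23.4 and 15.4 FPKM at D105. The 3 D85 libraries were close together, and D105 replicate 2 was the highest D105 library. Its change was 1.88 without that library against 2.11 with it. EGFL7, secreted by endothelium, was at 13, 13.7 and 15 FPKM and 25.8, 23.8 and 26.2 FPKM, and COL15A1, a collagen of the outer basement membrane, at 69.2, 86.8 and 75.9 FPKM and 174, 164 and 169.7 FPKM. COL15A1 had the tightest D105 group of these and stayed called without D105 replicate 2 (adjusted p = 0.0407), while EGFL7 did not (adjusted p = 0.0505). F8, coagulation factor VIII, which endothelium makes, rose from 3.09, 3.56 and 3.95 FPKM to 6.26, 7.41 and 7.03 FPKM. Its change was 0.80 ± 0.11 SE (adjusted p = 0.0407), lost in 9 of the 9 fits with a library left out, up to an adjusted p of 0.126 on leaving out D105 replicate 3. The locus with the symbol CEACAM1, an adhesion molecule of several cell types, is described in the table as the family member numbered 6, so its identity is uncertain. It rose from 1.75, 1.75 and 1.58 FPKM to 5.02, 5.66 and 3.52 FPKM, with D105 replicate 2 the highest. Its change was 1.07 ± 0.15 SE (adjusted p = 0.0463), and without that library 0.95 (adjusted p = 0.0799), a call lost in 8 of the 9 fits, up to an adjusted p of 0.14 on leaving out D85 replicate 1.

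The other loci that rose and have a reference transcript were UHMK1, RAP2C, RHBDF2, LOC101103458 and RMI2. UHMK1, a kinase with an RNA-binding domain, was at 2.63, 1.84 and 2.13 FPKM and 8.24, 8.2 and 8.4 FPKM, and its call held in each of the 9 fits with a library left out. RAP2C, a small Ras-family GTPase, rose from 3.18, 3.52 and 3.53 FPKM to 7.92, 9.69 and 6.55 FPKM. At D135 it was at 2.09, 1.7 and 2.3 FPKM, below both earlier days. The change from D85 to D105 was 1.02 ± 0.14 SE (adjusted p = 0.0488), lost in 8 of the 9 fits, up to an adjusted p of 0.161 on leaving out D85 replicate 1. RHBDF2, an inactive rhomboid protein that carries the protease ADAM17 to the cell surface, rose from 0.898, 1.01 and 0.896 FPKM to 2.21, 2.3 and 1.96 FPKM. The change was 0.70 ± 0.09 SE (adjusted p = 0.0407), lost in 9 of the 9 fits, up to an adjusted p of 0.14 on leaving out D85 replicate 1. LOC101103458, described in the table as eukaryotic translation initiation factor 4E type 2, a cap-binding repressor of translation, rose from 1.83, 1.49 and 1.39 FPKM to 4.09, 3.53 and 3.36 FPKM. Its change was 0.86 ± 0.11 SE (adjusted p = 0.0319), lost in 9 of the 9 fits, up to an adjusted p of 0.0989 on leaving out D85 replicate 2. RMI2, of the complex of the Bloom helicase, was at 0.608, 0.891 and 0.776 FPKM, 5.26, 3.87 and 3.29 FPKM and, at D135, 1.73, 1.26 and 0.976 FPKM, so that D105 stood above both other days. Its call was lost without D105 replicate 2 (adjusted p = 0.0564).

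Of the 26 called loci, 4 had no gene symbol (LOC101103458 among them) and 5 held no reference transcript, against 7.28% of all tested loci without one. The unnamed locus MSTRG.2474 was listed at 0 in each D85 and each D135 library and at 5.64, 5.13 and 7.26 FPKM at D105 (adjusted p = 0.000167). MSTRG.9363 rose from 3.59, 4.08 and 3.78 FPKM to 7.53, 9.09 and 7.68 FPKM (adjusted p = 0.0253, and 0.0446 without D105 replicate 2), lost in 5 of the 9 fits, up to an adjusted p of 0.085 on leaving out D85 replicate 1. MSTRG.2252 was at 3.03, 3.45 and 2.28 FPKM at D85 and listed at 0 in each later library (adjusted p = 0.00193). The locus under the name of RNF220, a ubiquitin ligase, without a reference transcript, was at 5.4, 4.7 and 6.5 FPKM at D85, listed at 0 in each D105 library and at 3.94, 4.95 and 4.17 FPKM at D135 (adjusted p = 0.000167). At the locus with the reference RNF220 transcripts the values were 7.86, 8.51 and 7.72 FPKM and 8.22, 6.3 and 7.5 FPKM, which overlapped. A listed 0 in this table can be a failed estimate, so no fold change is given for these loci.

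The loci that fell and have a reference transcript were FAM122B, STK26, CNTN3, KCNN1 and PRSS23. FAM122B was at 9.61, 11.7 and 12.1 FPKM and 4.31, 2.86 and 3.73 FPKM, and at 0.982, 1.06 and 1.28 FPKM at D135. STK26, a kinase of the Ste20 family, was at 12, 14.3 and 14.7 FPKM and 5.87, 6.92 and 6.64 FPKM, and then at 1.51, 1.7 and 1.96 FPKM. Both thus had lower levels at each later day. CNTN3, a contactin of the cell surface, was at 1.64, 2.01 and 2.31 FPKM and 0.559, 0.455 and 0.318 FPKM, and KCNN1, a calcium-activated potassium channel, at 1.28, 1.26 and 1.73 FPKM and 0.357, 0.352 and 0.291 FPKM. PRSS23, a secreted serine protease, was at 1.24, 1.41 and 0.89 FPKM, 0.05, 0.00985 and 0.172 FPKM and, at D135, 2.36, 1.98 and 2.65 FPKM, so D105 held its lowest values. Of these 5, FAM122B stayed called without D105 replicate 2 (adjusted p = 0.0248), and STK26, CNTN3, KCNN1 and PRSS23 did not (adjusted p = 0.0505, 0.0618, 0.0976 and 0.109), although their changes without it lay between -1.05 and -0.87. Over the 9 fits that left out a library, the call was lost in 2 for FAM122B, 6 for STK26 and 7 for CNTN3. Among the loci that rose it was lost in 7 for RPL3L, 6 for KLHL33, 1 for COL15A1, 7 for EGFL7 and 5 for RMI2.

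Called genes also lay near each other in the sheep RefSeq gene order (ARS-UI_Ramb_v3.0). RAP2C, which rose, and STK26, which fell, have 1 protein-coding gene between them, FRMD7, which was not tested. UHMK1 and RGS5, which both rose, have 6 protein-coding genes between them, of which 5 were tested and 0 called. Those 5 had changes from -0.24 (HSD17B7) to 0.18 (UAP1, with an adjusted p of 0.617). RGS4, a relative of RGS5, was among them with a change of 0.18. Nearness was noticed after the calls were seen and was not tested.

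After D105 the called loci took several courses. The comparison of D135 with D105 shares the D105 libraries, and in it 39.5% of all tested loci were called. Of the 19 loci that rose by D105, 8 were called higher again at D135, 6 were called lower, and the rest were not called. Of the 7 that fell, 2 were called lower again and 2 higher. Among those higher again were EEF1A2, ACTN3, RPL3L and KLHL33, and among those lower were RAP2C, RMI2 and COL15A1, which was at 120.3, 122 and 144 FPKM at D135. UHMK1, EGFL7, PLCD1, CEACAM1 and RHBDF2 were not called in the later interval.

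Leaving out D105 replicate 2 gained 11 calls, 2 higher and 9 lower. Among the gains that were higher, HHATL, a relative of the enzyme that acylates Hedgehog proteins, was at 1.43, 1.75 and 1.3 FPKM and 4.26, 7.05 and 3.8 FPKM. Its change was 1.24 with all libraries (adjusted p = 0.0648) and 1.02 without D105 replicate 2 (adjusted p = 0.0428).

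All 9 gained loci that were lower had their highest D105 value in D105 replicate 2. In 7 of the 11 gained loci a D105 library was listed at 0. LOC101119426, an uncharacterized gene, was at 302, 320.1 and 335 FPKM and 0, 156 and 0 FPKM. BANF1, a chromatin protein of the nuclear envelope, was at 32, 36.5 and 34.9 FPKM and 4.65, 31.1 and 3.94 FPKM, and at 33.6, 43.7 and 39.3 FPKM at D135. LOC780772, described in the table as the small cytochrome b subunit of succinate dehydrogenase, was at 5.98, 3.94 and 5.43 FPKM and 0, 5.39 and 0.0803 FPKM. The locus under SDHD, the symbol of that subunit, was at 41.9, 33 and 36.1 FPKM and 45.1, 41.5 and 45.8 FPKM, which overlapped. TSHZ3, a zinc finger factor, was at 2.11, 2.0 and 2.11 FPKM and 0, 1.96 and 0 FPKM. In BANF1, LOC780772 and TSHZ3 the range of the D105 libraries exceeded the difference of the day means, and with all libraries the adjusted p values were 0.285, 0.35 and 0.307. The locus under ARHGAP8 without a reference transcript was at 11.2, 10.1 and 12.5 FPKM and 0, 4.98 and 0 FPKM. At the reference ARHGAP8 locus the values were 2.81, 2.81 and 3.78 FPKM and 1.75, 1.02 and 0.735 FPKM, which did not overlap but were not called (adjusted p = 0.142). SGPL1, which degrades sphingosine 1-phosphate, had no 0, with 4.92, 5.01 and 5.07 FPKM and 1.99, 3.45 and 2.03 FPKM (adjusted p = 0.133 with all libraries and 0.0427 without D105 replicate 2).

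**Figure D3:**
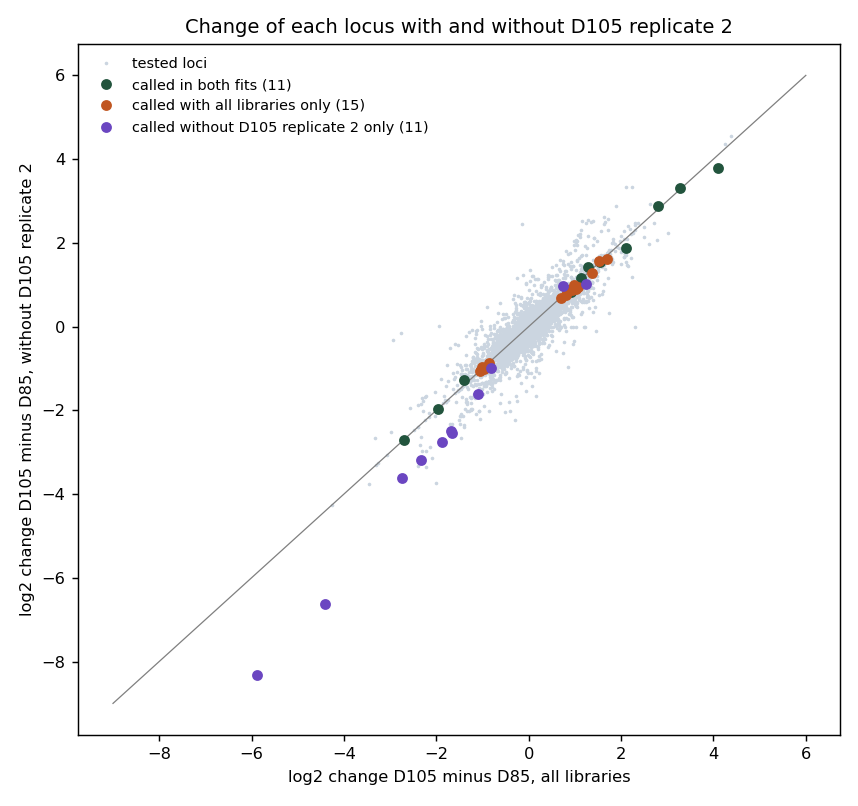
The change of each tested locus with all libraries (horizontal axis) and without D105 replicate 2 (vertical axis), both as log2(FPKM + 1), D105 minus D85, with the line of equality. Coloured points are called loci: 11 in both fits, 15 with all libraries alone and 11 without D105 replicate 2 alone, the last including the lowest points on the plot.

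A further 489 loci with a symbol were not called in either fit but had an unadjusted p under 0.05 in both, a day mean that reached 5 FPKM, and no overlap between days. Of these, 193 were higher at D105 and 296 lower. Among the 8 largest differences upward were MYBPC2, the fast form of myosin-binding protein C, at 4.05, 8.83 and 7.78 FPKM and 42.2, 29.7 and 76.9 FPKM (adjusted p = 0.144). FBP2, the muscle fructose bisphosphatase, was at 3.18, 1.78 and 2.51 FPKM and 14.6, 7.34 and 12.8 FPKM (adjusted p = 0.0805). In both genes D105 replicate 2 was the lowest D105 library. ELN, elastin, was at 4.54, 4.28 and 2.1 FPKM and 23.3, 40.3 and 15.1 FPKM (adjusted p = 0.146), and MGP, matrix Gla protein, which restrains calcification in vessels and cartilage, at 8.47, 11 and 4.74 FPKM and 20.03, 91.1 and 26.9 FPKM (adjusted p = 0.223). For these matrix genes D105 replicate 2 was the highest, and without it the changes were 2.14 and 1.48 against 2.49 and 2.12. The other 4 were C12H1orf115, at 0.943, 12.2 and 2.12 FPKM and 18.3, 19.8 and 22.5 FPKM, and loci without a reference transcript under the names SLC25A42, FBXL7 and NIPBL, each with a listed 0 at D85.

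Among the 8 largest differences downward, KLHL41, a kelch protein of the sarcomere that stabilises nebulin, was the most abundant. It was at 423, 305 and 299 FPKM at D85 and 76.1, 65.9 and 82.9 FPKM at D105, and at 162, 467 and 577 FPKM at D135. The D105 libraries thus lay close together and below every other library, with a change of -2.16 ± 0.43 SE that missed the threshold (adjusted p = 0.125). C4H7orf55 was at 20.4, 15.6 and 12.3 FPKM and 0.0888, 0.102 and 6.87 FPKM (adjusted p = 0.155). EID1, an inhibitor of differentiation that binds EP300, was at 27.6, 23.4 and 29.9 FPKM and 3.19, 2.97 and 0 FPKM, and IRF2BP2, a transcriptional corepressor, was at 7.52, 27.7 and 27.3 FPKM and listed at 0 in each D105 library (adjusted p = 0.226 and 0.262). At D135 EID1 was at 0, 13.7 and 10.0 FPKM and IRF2BP2 at 41.6, 0 and 0 FPKM. A listed 0 can be a failed estimate. Loci without a reference transcript under the names TSPAN9, TEAD1 and CELF2 were also among the 8, each with 2 D105 libraries listed at 0.

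Gene lists were then read by the number of members called, by the number at an unadjusted p under 0.05, and by their median change, to be set beside the values given above for all loci. Of 12 adult fast fibre isoforms tested, 1 passed the test upward and 0 downward (1 and 0 without D105 replicate 2), and at an unadjusted p there were 6 higher and 0 lower (7 and 0 without D105 replicate 2, against 4.73% and 6.08% of all loci). Their median change was 0.54, or 0.59 without D105 replicate 2. The member that rose was ACTN3. CASQ1, the calcium store protein of fast fibres, was at 125, 159 and 126 FPKM and 221, 258 and 322 FPKM (adjusted p = 0.117). MYLPF, the fast regulatory light chain and highest member, overlapped, at 2495, 3269 and 3839.8 FPKM and 5209, 2641 and 2876 FPKM. Of 14 slow fibre isoforms, 0 were called, with 0 higher and 0 lower at an unadjusted p and a median of 0.04 (-0.04 without D105 replicate 2). MYL2, the slow regulatory light chain, was at 413, 588 and 300.4 FPKM and 353, 507 and 252 FPKM, before 3735, 1687 and 3040.4 FPKM at D135. MYBPC1, the slow myosin-binding protein C, was at 211, 190.1 and 219 FPKM and 213, 217 and 208 FPKM, which overlapped.

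Of 9 tested genes in the embryonic and neonatal isoform list, 0 were called, with 0 higher and 3 lower at an unadjusted p (0 and 0 without D105 replicate 2). The median was -0.56, and -0.34 without that library. Beside isoforms the list also holds NES, NCAM1 and DES. The members DES and MYL6B had their highest means at D135, 690 and 447 FPKM. ACTC1, cardiac actin, which fetal skeletal muscle also makes, was at 1331, 1106 and 1818 FPKM and 1017, 547 and 604 FPKM (adjusted p = 0.36), with D105 replicate 2 the lowest. TNNT2, cardiac troponin T, was at 6.03, 6.86 and 6.34 FPKM and 3.9, 1.75 and 3.93 FPKM (adjusted p = 0.335). MYH8, neonatal myosin, overlapped, at 1334, 1618 and 1364 FPKM and 1757, 1259.6 and 1911 FPKM. Of 29 sarcomere scaffold genes, 0 were called, with 6 higher and 2 lower at an unadjusted p (4 and 1 without D105 replicate 2) and a median of 0.08 (0.06 without D105 replicate 2). TMOD4, the tropomodulin that caps thin filaments in skeletal muscle, was at 10.04, 11.4 and 8.91 FPKM and 20.02, 26.1 and 26.4 FPKM (adjusted p = 0.0648). MYOT, myotilin of the Z-disc, was at 9.06, 12.3 and 11.8 FPKM and 18.4, 20.8 and 17.2 FPKM (adjusted p = 0.0919). ACTA1 and TTN, skeletal actin and titin, were the highest members and overlapped, ACTA1 at 986, 943 and 1380.3 FPKM and 1316, 1775 and 933 FPKM.

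Of 19 genes of excitation-contraction coupling, 0 were called, with 2 higher and 1 lower at an unadjusted p (5 and 1 without D105 replicate 2) and a median of 0.22 (0.30 without it). CACNG1, a subunit of the muscle calcium channel, was at 6.17, 6.62 and 7.19 FPKM and 10.4, 8.31 and 10.4 FPKM (adjusted p = 0.142). CLCN1, the chloride channel that stabilises the resting membrane, was at 1.32, 1.85 and 1.69 FPKM and 2.86, 3.15 and 5.25 FPKM (adjusted p = 0.198). JPH2, which ties the sarcoplasmic reticulum to the surface membrane, was lower, at 27.7, 29 and 34.9 FPKM and 18.9, 17.6 and 5.84 FPKM (adjusted p = 0.251), with D105 replicate 3 the lowest. SLN, sarcolipin, an inhibitor of the calcium pump, split the D105 libraries, at 456, 389.8 and 63.9 FPKM against 322, 298 and 254 FPKM at D85. Of 15 genes of the neuromuscular junction, 0 were called, with 1 higher and 3 lower at an unadjusted p (1 and 2 without D105 replicate 2) and a median of -0.31 (-0.18 without D105 replicate 2). ACHE, acetylcholinesterase, was the member higher at an unadjusted p, at 4.43, 4.95 and 4.52 FPKM and 8.64, 7.12 and 9.4 FPKM (adjusted p = 0.256). ETV5, a transcription factor, and ERBB3, a neuregulin receptor of muscle and Schwann cells, were lower, ETV5 at 5.75, 4.88 and 4.28 FPKM and 2.7, 3.55 and 2.19 FPKM (adjusted p = 0.156) and ERBB3 at 27.1, 31.8 and 20.5 FPKM and 19, 7.94 and 13.2 FPKM (adjusted p = 0.278). Of 18 myogenic and satellite cell genes, 0 were called, with 0 higher and 1 lower at an unadjusted p (1 and 1 without D105 replicate 2) and a median of -0.11 (-0.01 without D105 replicate 2). VGLL2, a muscle cofactor of TEAD factors, was that lower member, at 17.9, 16.5 and 15.9 FPKM and 14.2, 9.15 and 7.84 FPKM (adjusted p = 0.256). PAX7, the satellite cell factor, was at 2.46, 3.73 and 2.28 FPKM and 2.19, 1.53 and 2.19 FPKM (adjusted p = 0.442).

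**Figure D4:**
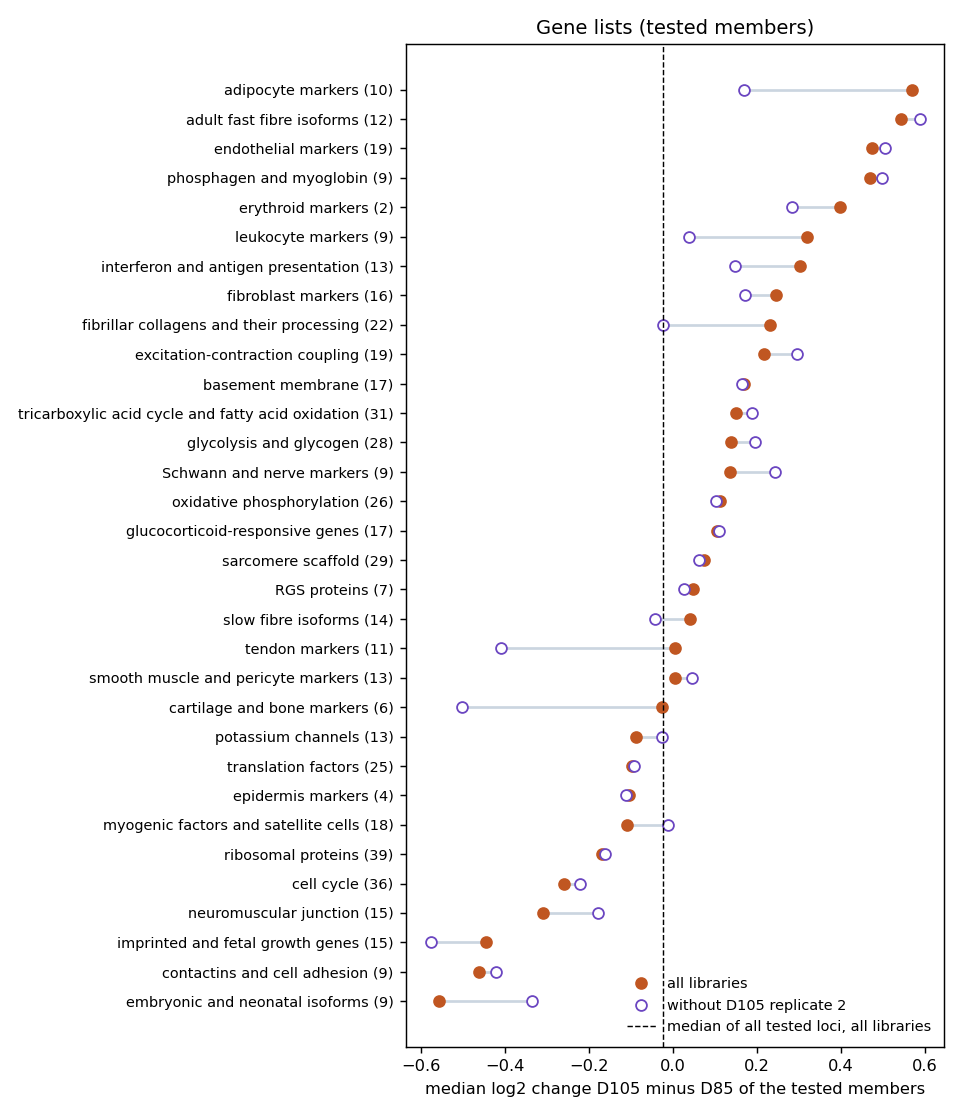
Median change (log2(FPKM + 1), D105 minus D85) of the tested members of each gene list, with the number tested in brackets. Filled points use all libraries, open points leave out D105 replicate 2, and the dashed line is the median of all tested loci; the tendon list moved from 0.01 to -0.41 and the endothelial list from 0.47 to 0.51.

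Of 28 genes of glycolysis and glycogen, 0 were called, with 11 higher and 1 lower at an unadjusted p (9 and 1 without D105 replicate 2). The median was 0.14, and 0.20 without that library. PGAM2, the muscle phosphoglycerate mutase, was at 155, 148 and 132 FPKM and 346, 245 and 368 FPKM (adjusted p = 0.134). SLC2A4, the insulin-responsive glucose transporter, was at 1.91, 2.67 and 3.43 FPKM and 5.25, 6.66 and 5.19 FPKM (adjusted p = 0.134). ALDOA, aldolase of muscle, was at 117, 239.5 and 254 FPKM and 329, 313 and 359 FPKM (adjusted p = 0.392), and D85 replicate 1 was the lowest of the 6. For 26 nuclear genes of oxidative phosphorylation, 0 were called, with 1 higher and 0 lower at an unadjusted p (4 and 0 without D105 replicate 2) and a median of 0.11 (0.10 without it). SDHB, the iron-sulfur subunit of complex II, was at 6.03, 6.56 and 5.75 FPKM and 8.2, 7.04 and 7.73 FPKM (adjusted p = 0.405). Of 31 genes of the tricarboxylic acid cycle and fatty acid oxidation, 0 were called, with 6 higher and 1 lower at an unadjusted p (2 and 0 without D105 replicate 2). PDHA1, which brings pyruvate into the cycle, was at 19.9, 22.4 and 19.3 FPKM and 26, 24.9 and 25.3 FPKM (adjusted p = 0.324).

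In the phosphagen list, which holds creatine kinases and their partners, 9 genes were tested, 0 were called, with 4 higher and 1 lower at an unadjusted p (4 and 1 without D105 replicate 2). CKB, the brain-type creatine kinase of immature muscle, was the lower one, at 6.02, 5.2 and 5.87 FPKM and 2.09, 1.85 and 2.14 FPKM (change -1.15 ± 0.17 SE, adjusted p = 0.0648). CKM, whose values are given above, had a change of 0.74 ± 0.20 SE (adjusted p = 0.198), so the 2 forms differed in direction, and their difference was not tested. AMPD1, muscle AMP deaminase, was at 11.6, 17.8 and 12 FPKM and 23.6, 20.8 and 30.9 FPKM, and GATM, which makes the creatine precursor, at 13, 12 and 12 FPKM and 15.9, 19.8 and 21.2 FPKM (adjusted p = 0.186 and 0.134). Of 17 glucocorticoid-responsive genes, 0 were called, with 2 higher and 0 lower at an unadjusted p and a median of 0.10 (0.11 without D105 replicate 2). TXNIP, which restrains glucose uptake and binds thioredoxin, was at 23.1, 20.8 and 17.6 FPKM and 41.3, 33.9 and 33.9 FPKM (adjusted p = 0.0708). NR3C1, the glucocorticoid receptor, was at 11.8, 10.8 and 11.4 FPKM and 12.8, 15.1 and 14.5 FPKM (adjusted p = 0.239). FKBP5, a target used as a read-out of that receptor, overlapped, at 1.05, 1.05 and 1.05 FPKM and 0.655, 0.514 and 1.08 FPKM.

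Most growth and division genes had a negative change without being called, 14 of 15 in the imprinted list and 36 of 36 in the cell cycle list. Without D105 replicate 2 these were 14 and 34. Of all tested loci, 54.5% had a negative change, and 54.7% without that library. Of 15 imprinted and fetal growth genes, 0 were called, with 1 higher and 6 lower at an unadjusted p (1 and 5 without D105 replicate 2). Their median was -0.44, and -0.58 without that library. PEG10, a retrotransposon-derived imprinted gene, was at 331, 423 and 316 FPKM and 206, 185 and 188 FPKM, and at 31.8, 21.8 and 24.9 FPKM at D135. PLAGL1, an imprinted zinc finger factor, was at 26.2, 24.8 and 23.8 FPKM and 16.1, 18.9 and 15.8 FPKM. NNAT, neuronatin, was at 40.2, 60.1 and 41.6 FPKM and 30.5, 14.5 and 26 FPKM (adjusted p = 0.117, 0.117 and 0.244 for the 3 genes). None of the 3, which were chosen by small p or high level, overlapped between days. D105 lay wholly below D85 at 5 of the 15 imprinted list members, against 10.4% of all tested loci. Of 36 cell cycle genes, 0 were called, with 0 higher and 7 lower at an unadjusted p (0 and 6 without D105 replicate 2). Their median was -0.26 (-0.22 without that library). D105 lay wholly below D85 at 19 of them, against 10.4% of all tested loci. MCM3, of the replicative helicase, was at 19.2, 22.6 and 20.3 FPKM and 17, 15.6 and 13.9 FPKM (adjusted p = 0.195), and CDK1, the mitotic kinase, at 6.92, 5.91 and 6.12 FPKM and 3.98, 4.78 and 4.37 FPKM (adjusted p = 0.255). Of 39 ribosomal protein genes, 0 were called, with 0 higher and 3 lower at an unadjusted p and a median of -0.17 (-0.16 without D105 replicate 2). RPL3, the ubiquitous paralog of RPL3L, was at 595, 595 and 589.5 FPKM and 523, 473 and 435 FPKM (adjusted p = 0.314). Among 25 translation genes, 2 passed the test upward and 0 downward (1 and 0 without D105 replicate 2), and those that rose were EEF1A2 and RPL3L, both placed in this list with their rise known. At an unadjusted p 2 translation genes were higher and 1 lower (2 and 2 without D105 replicate 2). EIF4A1, the initiation helicase, was at 108, 96.6 and 97.5 FPKM and 86.8, 79.5 and 64 FPKM (adjusted p = 0.31).

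Families around 3 called genes were listed because those genes were known to change. Of 9 tested contactins and adhesion molecules, 0 passed the test upward and 1 downward (0 and 0 without D105 replicate 2), with 0 higher and 4 lower at an unadjusted p and a median of -0.46 (-0.42 without D105 replicate 2). Besides CNTN3, CDH2, N-cadherin, which joins myoblasts, was at 2.4, 1.99 and 2.14 FPKM and 1.02, 1.26 and 0.883 FPKM (adjusted p = 0.117). NRCAM, a neuronal adhesion molecule, was at 1.97, 3.45 and 4.54 FPKM and 1.07, 0.662 and 1.34 FPKM, and NCAM1, the adhesion molecule of immature fibres, at 22.8, 30.03 and 24.5 FPKM and 22, 14.9 and 18.7 FPKM (adjusted p = 0.142 and 0.281). These 4 were chosen by small p or high level, and all lay lower in every D105 library than in any of D85. Of the 9 tested members 5 did so, against 10.4% of all tested loci. Of 13 tested potassium channel genes, 0 passed the test upward and 1 downward (0 and 0 without D105 replicate 2), and the one that fell was KCNN1. KCNJ2, an inward rectifier that sets the resting potential, was at 3.2, 4.24 and 5.73 FPKM and 6.18, 7.2 and 6.12 FPKM (adjusted p = 0.297). Of 7 tested RGS genes, 1 passed the test upward and 0 downward (1 and 0 without D105 replicate 2), RGS5 alone passing. At an unadjusted p 1 was higher and 1 lower (1 and 0 without D105 replicate 2). RGS2 was at 3.2, 3.83 and 2.41 FPKM and 1.95, 1.7 and 0.884 FPKM (adjusted p = 0.371).

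Endothelial markers all had positive changes, 19 of 19 with all libraries and 19 without D105 replicate 2. Of 19 tested, 1 passed the test upward and 0 downward (0 and 0 without D105 replicate 2), while 13 higher and 0 lower passed at an unadjusted p (11 and 0 without D105 replicate 2) and 14 lay wholly above D85. Of all tested loci, 5.65% were higher at an unadjusted p and 8.0% lay wholly above D85. The median of the endothelial list was 0.47, and 0.51 without D105 replicate 2, as large as with it. VWF, von Willebrand factor, was at 8.33, 10.7 and 9.93 FPKM and 17, 17.5 and 15.7 FPKM (adjusted p = 0.0805). ESAM, of endothelial junctions, was at 4.0, 5.07 and 6.07 FPKM and 8.66, 8.88 and 9.03 FPKM, and PECAM1, the most abundant member, at 62.5, 68.5 and 76.4 FPKM and 97.4, 105 and 109 FPKM (adjusted p = 0.113 and 0.18). The summed level of the list was 236 to 259 FPKM at D85 and 345 to 368 FPKM at D105. The part of vessel cell number in the rises of EGFL7, F8, RGS5 and COL15A1 was not tested.

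**Figure D5:**
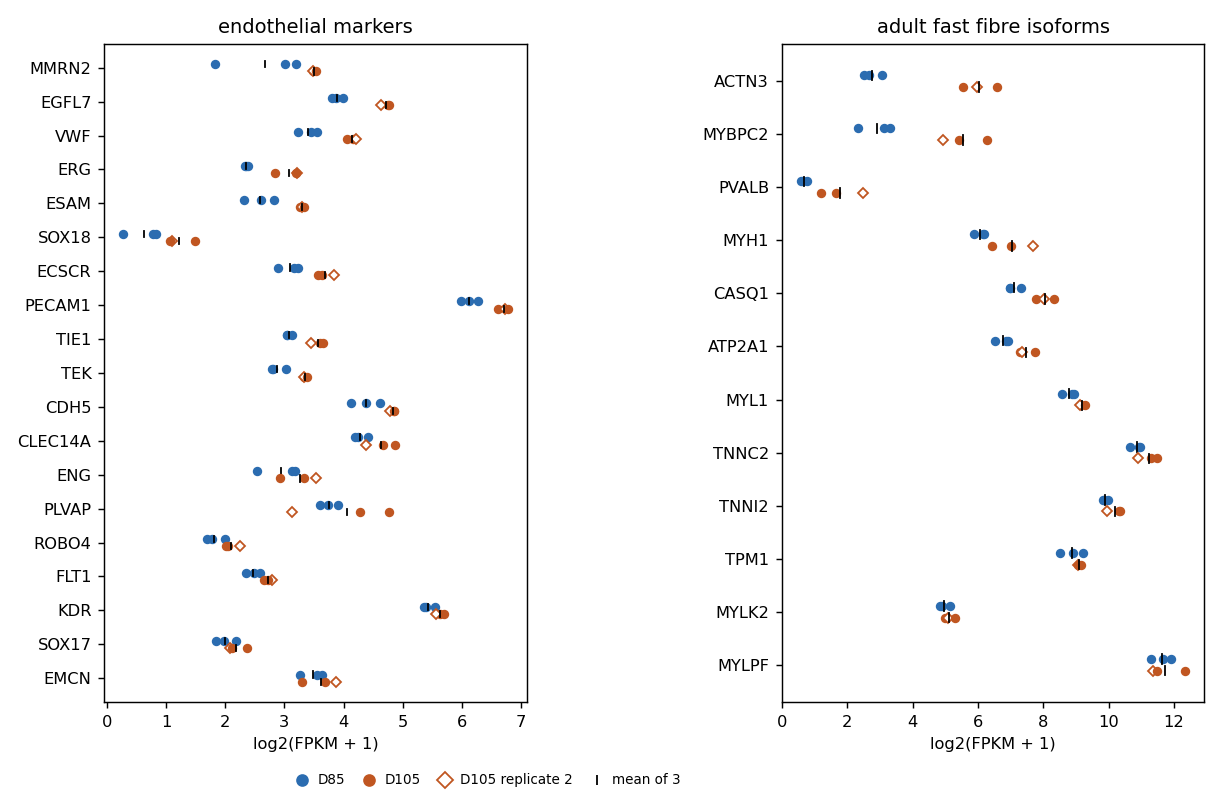
Tested members of the endothelial list (left) and the adult fast fibre list (right), with log2(FPKM + 1) on the horizontal axis and single libraries as points. The open diamond is D105 replicate 2, black ticks are means of 3, and MYH1 stands for the joined locus of near-identical fast myosins. In all, 14 of 19 endothelial and 7 of 12 fast fibre members lie wholly higher at D105, against 8.0% of all tested loci.

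Of 13 smooth muscle and pericyte markers, 1 passed the test upward and 0 downward (1 and 0 without D105 replicate 2), with 3 higher and 0 lower at an unadjusted p (2 and 0 without D105 replicate 2) and a median of 0.00 (0.05 without D105 replicate 2). The one that rose was RGS5. MYH11, smooth muscle myosin, was at 4.23, 5.45 and 4.51 FPKM and 12, 12.8 and 6.46 FPKM (adjusted p = 0.176), whereas ACTA2, smooth muscle actin, was lower, at 64.1, 85.8 and 70.9 FPKM and 63, 54.7 and 35 FPKM (adjusted p = 0.487). Members of this list thus did not share a direction. The list shares DES, desmin, with the embryonic and neonatal list and NOTCH3 with the myogenic list. It therefore does not describe vessel walls alone. DES, at 635, 435 and 375 FPKM and 383, 368 and 741 FPKM, was the member at the median. HIGD1B, a pericyte marker, was below 0.5 FPKM in each of the 6 libraries. Of 17 basement membrane genes, 1 passed the test upward and 0 downward (1 and 0 without D105 replicate 2), with 3 higher and 1 lower at an unadjusted p (2 and 0 without D105 replicate 2), and the one that rose was COL15A1. LAMB2, a laminin chain of the synapse and vessels, was at 69, 82.5 and 60.6 FPKM and 93.9, 95.3 and 85.4 FPKM, and NID2, nidogen 2, at 47.7, 44.9 and 51.7 FPKM and 59, 60.5 and 53.1 FPKM (adjusted p = 0.297 and 0.307). Of 16 fibroblast markers, 0 were called, with 5 higher and 0 lower at an unadjusted p (4 and 0 without D105 replicate 2). CD34, of fibroblasts and endothelium, was at 9.8, 9.92 and 10.7 FPKM and 15.5, 17.7 and 16.8 FPKM (adjusted p = 0.121), and PI16, of adventitial fibroblasts, at 7.59, 3.58 and 5.3 FPKM and 9.61, 19.8 and 16.2 FPKM (adjusted p = 0.216).

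The medians of lists raised in D105 replicate 2 moved when it was left out. For 22 genes listed as fibrillar collagens and their enzymes, 0 were called, and the median went from 0.23 to -0.02 when the library was left out. At an unadjusted p 0 were higher and 0 lower (0 and 1 without D105 replicate 2). COL6A3, a listed member that is a type VI and not a fibrillar collagen chain, was at 33.2, 32.3 and 25.6 FPKM and 32.9, 72.5 and 35.9 FPKM. Of 11 tested tendon markers, 0 were called, and without that library their median was -0.41 against 0.01. At an unadjusted p 0 were higher and 1 lower (0 and 0 without D105 replicate 2). TNC, tenascin C, was not raised in that library, at 17.8, 25.1 and 15.9 FPKM and 14.8, 9.94 and 9.21 FPKM (adjusted p = 0.365). Of 6 tested cartilage and bone markers, 0 were called, with medians of -0.03 and, without the library, -0.50. COL11A1, a cartilage collagen chain, was at 26.3, 32.2 and 15.2 FPKM and 11.7, 105 and 13.9 FPKM. Of 10 tested adipocyte markers, 0 were called, with medians of 0.57 and 0.17. At an unadjusted p 1 was higher and 0 lower (0 and 0 without D105 replicate 2). PLIN4, a lipid droplet coat protein, lay above D85 in every D105 library, at 0.945, 1.15 and 0.999 FPKM and 2.22, 2.49 and 2.0 FPKM (adjusted p = 0.358).

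Of 9 tested leukocyte markers, 0 were called, with medians of 0.32 and, without D105 replicate 2, 0.04. At an unadjusted p 2 were higher and 0 lower (0 and 0 without D105 replicate 2). C1QA, a complement chain made by macrophages, was at 1.37, 4.68 and 6.83 FPKM and 7.13, 16.6 and 9.3 FPKM (adjusted p = 0.31), and D105 replicate 2 was the highest. Of 13 interferon and antigen presentation genes, 0 were called, with medians of 0.30 and 0.15. At an unadjusted p 2 were higher and 0 lower (0 and 0 without D105 replicate 2). MX1, an interferon target, was at 1.49, 1.16 and 3.26 FPKM and 2.35, 12.1 and 4.58 FPKM, again highest in D105 replicate 2. For 9 Schwann and nerve markers, 0 were called, with medians of 0.14 and 0.24. At an unadjusted p 2 were higher and 1 lower (1 and 1 without D105 replicate 2). Of 4 tested epidermis markers and 2 erythroid markers 0 were called, and KRT5 and KRT1 of epidermis and GATA1 and KLF1 of erythroid cells were below 0.5 FPKM in each of the 6 libraries.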

How the data were processed

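RNA of the longissimus dorsi was extracted with Trizol, and Illumina kits for mRNA and small RNA were used, per the labels' protocols. Per the file headers, the authors deposited a single table of FPKM values with a column per library. The submitters' processing notes name cutadapt, Bowtie2 and TopHat2, without order or versions; neither the genome build nor the way of counting is given in the sources used here, so no coordinates are printed. The design text names a pair of HiSeq models without assigning libraries to them, so a batch could not be tested. Reads of near-identical or overlapping genes cannot be divided.

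Libraries were grouped by title. Symbols came from the table, and for 494 loci from RefSeq (ARS-UI_Ramb_v3.0). The 13086 loci that reached 1 FPKM in 3 or more libraries were put on the log2(FPKM + 1) scale. They were fitted by limma (version 3.58.1, under R version 4.3.3) over all 9 libraries together, without a block, with a variance trend, two-sided, with Benjamini-Hochberg adjustment over all tested loci. The code was tested on simulated data. The members and the 32 gene lists (614 of 664 entries matched a locus) were chosen with earlier results of these data known. A symbol with several loci was read at the locus of highest mean.

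Loci were named by rule: each called locus with or without D105 replicate 2, per list up to 3 members of smallest p and the 2 of highest mean, the 8 largest uncalled differences each way, the 10 loci most raised in D105 replicate 2, and defining markers of other cells near 0. Those shown from each list, and those used as zero markers, are a part of what the rule allows, and a few loci the rule names are not reported here. Alternatives changed the pseudocount, filter, scaling, variance model, library weights, replicate block and libraries. Figures used matplotlib 3.10.9 in Python 3.11.15.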

Additional observations from a re-analysis of the deposited data

How the results depend on the processing

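The count of 26 called loci (19 higher, 7 lower) became 45 without a filter on low values (24 lower), 17 with only the D85 and D105 libraries (10 higher), and 42 with only those libraries and without D105 replicate 2 (29 lower). Of the 26, 22 were among the 45, 8 among the 17 and 5 among the 42. With a pseudocount of 0.1, 3 loci were lower. With a single library left out the count ran from 14 (without D135 replicate 2) to 28 (without D105 replicate 1), those higher from 10 to 13 and those lower from 4 to 18; without D85 replicate 2 or D85 replicate 3 the count was 16. The split was 10 higher and 18 lower without D105 replicate 1 and 10 and 12 without D105 replicate 2. Each fit with fewer libraries also estimates the spread from fewer values. The cause of the shifts was not tested. Scaling by median of ratios or quantiles each lost 1 called locus, KCNN1 (adjusted p = 0.0751 and 0.0699). None of the loci called with or without D105 replicate 2, or named as the largest uncalled differences, changed direction under the alternatives run. Of the 10 loci most raised in D105 replicate 2, HSPB2, FABP4, CPXM2, CPZ and FMOD did without that library, for whose high values the 10 were chosen.

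The labels number replicates 1 to 3 in each day, but same-numbered D85 and D105 libraries did not deviate together (r from -0.0659 to 0.00235 across loci), and 0 of 6 libraries correlated best with their own number. With a replicate block 8 loci were called, 6 higher and 2 lower, of which 7 were among the 26.

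Depth in reads is unknown, and loci under 1 FPKM in most libraries were not tested. With 3 libraries a day, changes short of the threshold are not shown to be absent. The medians of the slow fibre, sarcomere, myogenic, potassium channel, RGS, smooth muscle, fibrillar collagen, tendon, cartilage and epidermis lists changed sign in at least 1 alternative, and those of the other lists did not.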
